A study of Rattus norvegicus with 16 samples.

Results

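The cell cycle and mitosis genes described here are a set of 40 rat genes. Of these, 37 were measured among the 14324 genes of the arrays. The set was chosen by name with earlier results of these data known, so counts over it describe and do not test. A gene was measured where a probe set carried its symbol and no other, and the brightest probe set was taken where there were several. The set holds 5 genes of the G1/S transition (Cdk2, Cdk4, Ccnd1, Ccne2 and E2f1), 9 of 11 genes of DNA replication in S phase, and 23 of 24 genes of mitosis. Mcm3, Mcm4 and Mki67 were not analysed here, because no probe set carried their symbol and no other in the probe annotation used. Ccnb2 and Rrm2 had a further probe set each, which followed the one used with a Pearson's r of 0.9996 and 0.993 over the 16 arrays.

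Retinal RNA came from newborn rats of an outbred strain, Sprague Dawley (SD), and an inbred strain, Fischer (F344), in a model of oxygen-induced retinopathy. Treated rats of each strain breathed 80% and 21% oxygen in turns of 24 h, starting within 12 h of birth, and control rats of each strain were kept in room air. Retinae were taken on day 6 or day 5 after birth. The 8 groups were therefore SD hyperoxia day 6, SD room air day 6, F344 hyperoxia day 6, F344 room air day 6, and the same 4 groups on day 5, with 2 arrays each. Every array held RNA pooled from several rats, and the labels do not say which oxygen level preceded each day. The spread behind every p value is that between such pools, of which each group had 2. The design text speaks of 3 rats and 2 litters without saying whether these made up 1 pool or both pools of a group, so p values may cover less than the spread between animals. All values are log2 expression values, all changes are differences of log2 values, and levels are compared only within a gene.

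A dividing cell passes G1, copies its DNA in S phase and divides in mitosis. Cyclin D with CDK4 and cyclin E with CDK2 release E2F transcription factors from the retinoblastoma protein, and E2F then switches on replication genes. The genes of mitosis are transcribed later, in G2, through promoters bound by the MuvB complex. In the rat retina progenitor cells keep dividing through the first days after birth and then leave the cycle as rods and other late-born cells form.

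The promoters are shown first, because the S phase and the mitosis members differ in the letters near their start. RefSeq promoters of the rat assembly GRCr8, from 250 bases before to 50 after the annotated start, were at hand for 29 of the 37 measured members. They were searched on both strands for TTTGAA, the core of the cell cycle genes homology region (CHR) through which the MuvB complex binds, for CCAAT, the box bound by NF-Y, and for the E2F sites TTTCGCGC, TTTGGCGC and TTCCCGCC. The motifs can overlap. In Mcm2 an E2F site overlaps its own reverse complement, and in Mcm5 and Mcm6 it overlaps the reverse complement of another E2F site. Each such stretch counts as 2 matches. In the sequences below, written 5′ to 3′ on the strand of the gene, capitals mark every match.
Ccnb2: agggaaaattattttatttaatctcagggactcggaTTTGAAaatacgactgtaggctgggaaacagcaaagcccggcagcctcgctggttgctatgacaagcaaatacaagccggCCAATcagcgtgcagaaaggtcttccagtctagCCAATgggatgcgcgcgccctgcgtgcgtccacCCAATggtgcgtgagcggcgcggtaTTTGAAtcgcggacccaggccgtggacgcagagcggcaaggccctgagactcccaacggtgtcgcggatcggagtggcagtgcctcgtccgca
Nusap1: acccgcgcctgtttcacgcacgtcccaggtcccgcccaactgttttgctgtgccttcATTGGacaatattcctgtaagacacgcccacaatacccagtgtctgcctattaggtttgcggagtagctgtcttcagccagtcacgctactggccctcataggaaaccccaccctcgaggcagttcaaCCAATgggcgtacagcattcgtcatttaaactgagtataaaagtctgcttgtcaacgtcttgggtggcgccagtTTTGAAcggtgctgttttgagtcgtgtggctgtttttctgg
Plk1: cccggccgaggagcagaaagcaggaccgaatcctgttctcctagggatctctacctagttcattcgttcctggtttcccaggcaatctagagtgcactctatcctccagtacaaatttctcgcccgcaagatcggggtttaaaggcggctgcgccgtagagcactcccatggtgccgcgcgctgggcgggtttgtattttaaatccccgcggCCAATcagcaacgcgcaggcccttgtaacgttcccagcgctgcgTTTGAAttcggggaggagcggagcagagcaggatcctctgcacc
Mcm6: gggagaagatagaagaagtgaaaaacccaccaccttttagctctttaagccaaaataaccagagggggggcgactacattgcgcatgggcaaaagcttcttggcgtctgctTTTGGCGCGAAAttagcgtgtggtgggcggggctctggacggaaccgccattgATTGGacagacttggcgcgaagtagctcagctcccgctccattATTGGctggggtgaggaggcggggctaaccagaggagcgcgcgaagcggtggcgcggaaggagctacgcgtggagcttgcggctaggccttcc
Mcm7: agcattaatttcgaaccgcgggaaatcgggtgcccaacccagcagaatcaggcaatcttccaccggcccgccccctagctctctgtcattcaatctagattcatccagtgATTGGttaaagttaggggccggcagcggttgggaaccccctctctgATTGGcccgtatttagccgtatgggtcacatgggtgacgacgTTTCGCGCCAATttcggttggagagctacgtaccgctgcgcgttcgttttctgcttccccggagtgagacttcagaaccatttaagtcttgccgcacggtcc
Pcna: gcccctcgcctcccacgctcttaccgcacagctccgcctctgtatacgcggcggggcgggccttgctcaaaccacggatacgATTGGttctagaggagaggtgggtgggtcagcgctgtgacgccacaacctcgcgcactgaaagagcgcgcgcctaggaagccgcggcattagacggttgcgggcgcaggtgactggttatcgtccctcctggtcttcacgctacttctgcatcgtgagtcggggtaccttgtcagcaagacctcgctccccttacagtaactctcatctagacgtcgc
Ccnb2 (chr8:79981609-79981908, minus strand) is a cyclin that activates CDK1, Nusap1 (chr3:127057045-127057344, plus strand) binds spindle microtubules, and Plk1 (chr1:186147408-186147707, plus strand) is a mitotic kinase. All 3 hold the CHR core and at least 1 CCAAT box and no E2F match. Mcm6 (chr13:42404303-42404602, minus strand) and Mcm7 (chr12:22163129-22163428, minus strand) are subunits of the replicative helicase and hold an E2F site with CCAAT boxes and no CHR core. Pcna (chr3:139955771-139956070, minus strand), the sliding clamp of the DNA polymerases, is shown because it was called in neither comparison of the days. The same was true of Tyms, whose promoter holds an E2F match. Pcna held 1 CCAAT box and was the S phase member without an E2F match.

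Over the set, the CHR core was present in 13 of 19 mitosis promoters (68.4%) and in 1 of 8 S phase promoters (12.5%), against 18.1% of all 27457 promoters of the table. An E2F site was present in 2 of 19 mitosis promoters (10.5%; Cdk1 and Kif23) and in 7 of 8 S phase promoters (87.5%), against 2.83% of all. CCAAT was as common in both classes, with 14 of 19 mitosis (73.7%) and 6 of 8 S phase promoters (75.0%), against 37.7% of all. CHR core and CCAAT stood together in 10 of 19 mitosis promoters (52.6%), in 0 of 8 S phase promoters and in 7.25% of all. The share of mitosis promoters with a CHR core depended on the window. From 200 bases before the start to the start itself it was 7 of 19 (36.8%), against 12.5% of all. A match describes letters and shows no binding.

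**Figure D1:**
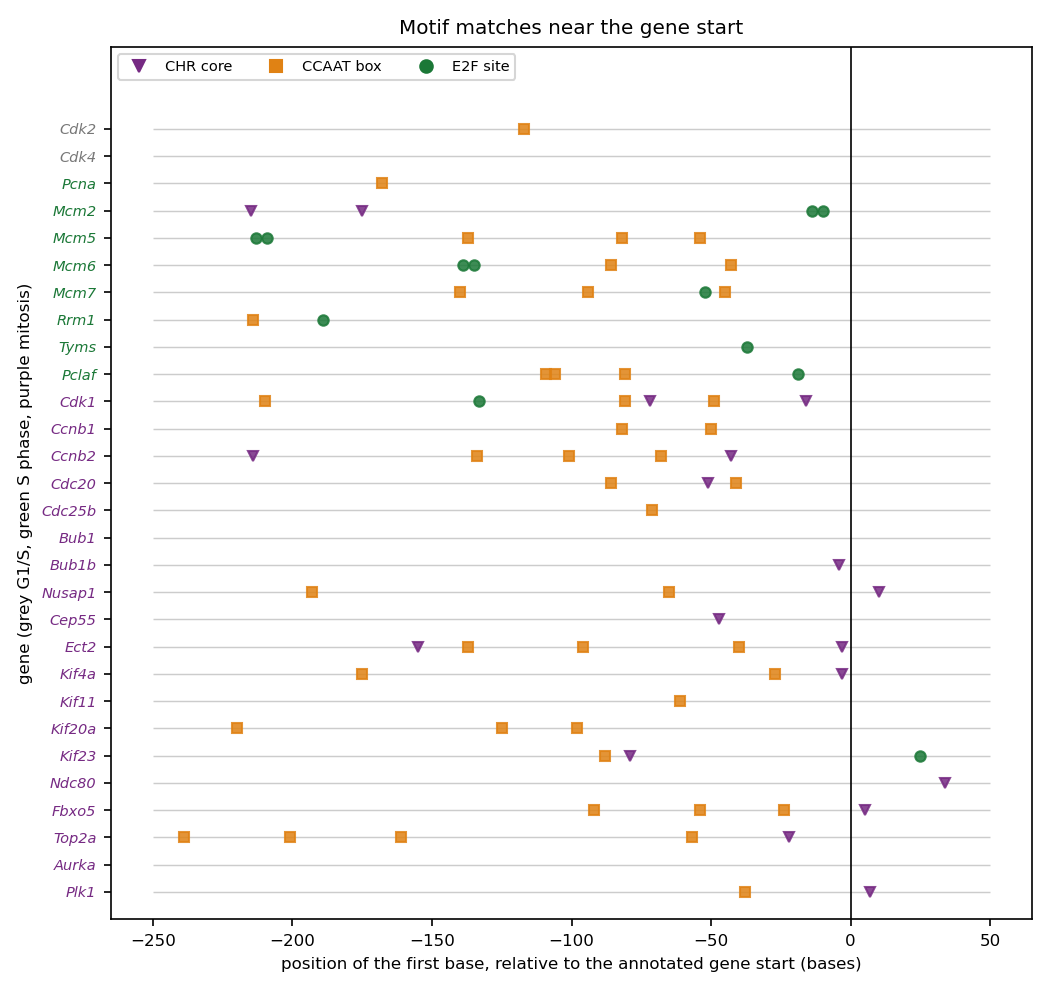
Motif matches in the 29 member promoters, plotted by the position of their first base relative to the annotated gene start in bases (x axis), 1 gene per row (y axis). Purple triangles are the CHR core, orange squares CCAAT and green circles E2F sites. The 16 CHR matches of the mitosis members run between -214 and 34 with a median of -19, and their 31 CCAAT matches between -239 and -24 with a median of -86. The 10 E2F matches of the S phase members lie between -213 and -10.

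The levels of these genes went with the day. Relative to each gene's mean over the 16 arrays, the mitosis members averaged between -0.93 and -0.28 on the 8 day 6 arrays, with a median of -0.62. On the 8 day 5 arrays they averaged between -0.06 and 0.86, with a median of 0.64. No day 6 array reached the lowest day 5 array. The S phase members averaged between -0.67 and -0.12 on day 6 arrays and between -0.27 and 0.69 on day 5 arrays, and here the days overlapped through SD room air day 5 replicate 2. The G1/S members averaged between -0.63 and 0.16 on day 6 and between -0.07 and 0.52 on day 5, which overlap as well. In bulk retina, fewer dividing cells and less RNA of these genes per cell cannot be told apart.

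**Figure D2:**
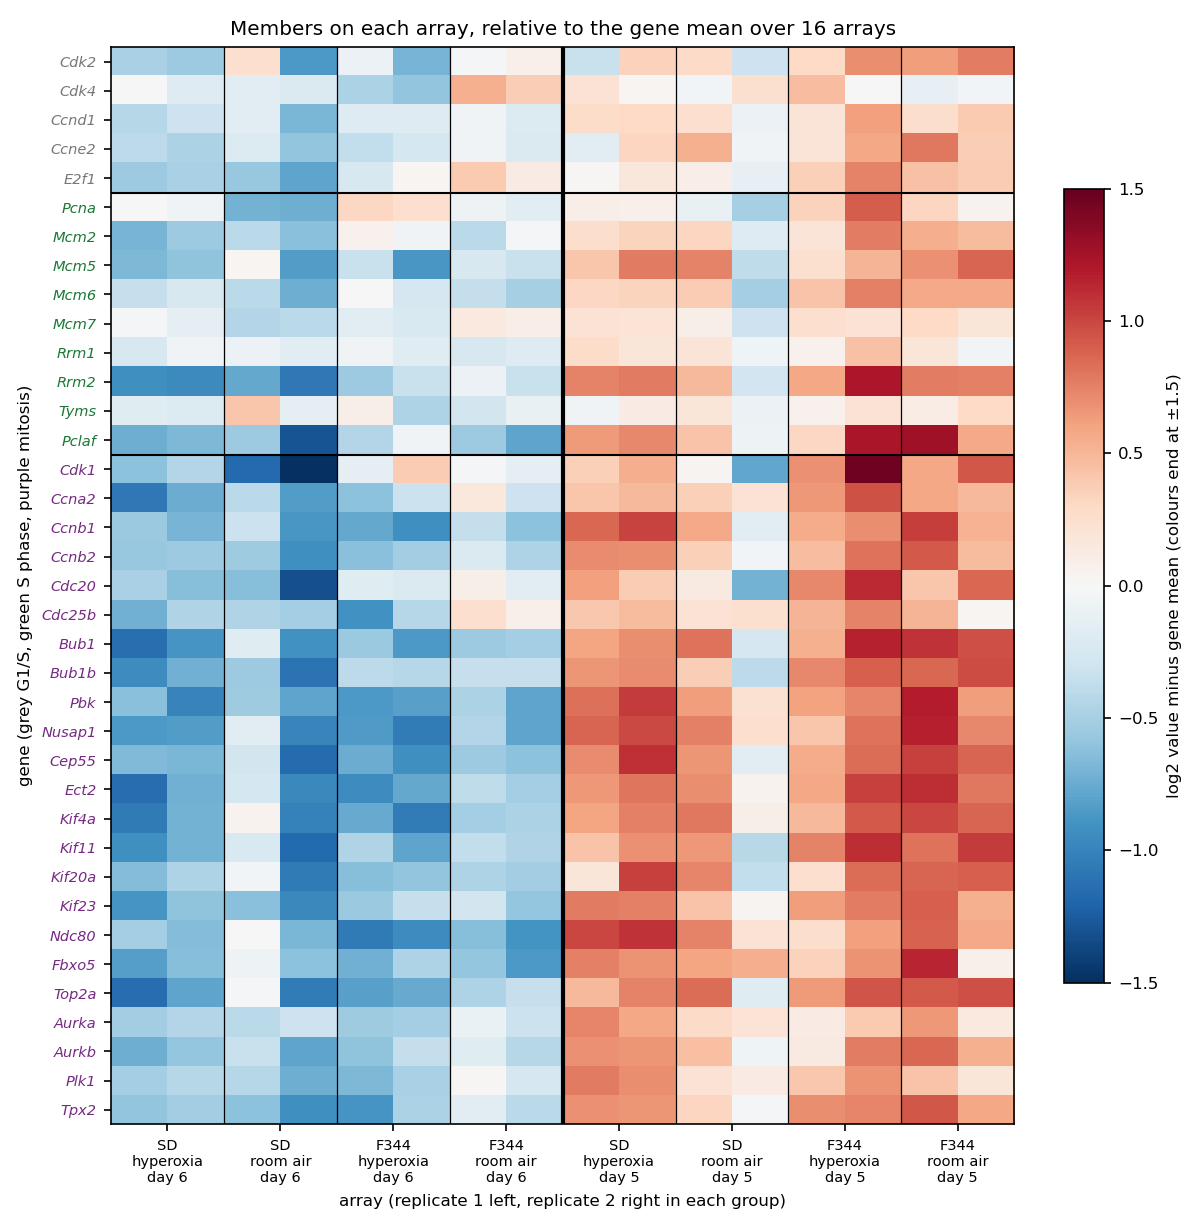
Log2 value of each measured member (rows; grey names G1/S, green S phase, purple mitosis) on each of the 16 arrays (columns, replicate 1 left and replicate 2 right in each group) minus the gene's mean over the arrays. Blue is below and red above that mean, and colours end at ±1.5. Day 6 groups, left of the thick line, are mostly blue and day 5 groups mostly red, and replicate 2 of both SD room air groups is bluer than replicate 1.

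The share of members over 0.5 apart between replicates was above that of all genes in 5 of the 8 groups, and most so in SD room air. In SD room air, replicate 2 was lower than replicate 1 for 35 of 37 members on day 6 and again for 35 of 37 on day 5, with median differences of -0.51 on either day, while the median over all genes was 0.01 on either day. In F344 hyperoxia day 5, replicate 2 was higher for 35 of 37 members, with a median of 0.36, and 21.6% differed by over 0.5, against 1.81% of all genes. In F344 room air day 5 these shares were 13.5% and 4.83%, and in SD hyperoxia day 5 they were 5.41% and 0.552%. In F344 room air day 6 no member differed by so much, but replicate 2 was lower for 29 of 37. Of all genes, 5.77% in SD room air day 6 and 3.55% in SD room air day 5 differed by over 0.5 between replicates, against 51.4% and 56.8% of the members. Over all genes the replicates of F344 hyperoxia day 6 differed most, with 13.2% of genes over 0.5 apart, against 0.552% to 5.77% in the other groups. Replicate 2 of this group stood apart by its interquartile range over all probe sets. This was 2.81, the lowest of any array, against 3.10 in replicate 1. Of the markers of the retina, all 11 measured rod genes lay above 5.45, the lowest median of an array, in every group, and 6 to 8 of 9 endothelial markers lay under it. Rrm1 in all day 6 groups, Bub1b in SD hyperoxia day 6 and Cdk1 in SD room air day 6 had group means under 5.45. This median is not a detection limit, but differences of such low values may be bounds in size.

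Under cyclic hyperoxia, 34 of 37 members were lower on day 6 than on day 5 by limma at an adjusted p under 0.05, and 0 were higher. Of all 14324 genes, 2.7% were called lower and 2.1% higher in this comparison. The members' median change was -1.16, against 0.00498 over all genes, and 36 members did not overlap between the days within either strain, against 9.45% of all genes. In room air, 27 of 37 were lower and 0 higher, where 1.71% of all genes were called lower and 1.29% higher. The median change there was -0.94, against 0.02 over all genes, and 25 members did not overlap, against 4.68% of all genes. The hyperoxia and room air comparisons share no arrays. Their calls come from the same fit, in which all groups share the estimate of each gene's spread, so they are not independent. All 27 members called in room air were also called under hyperoxia, 7 were called under hyperoxia alone (Cdc20, Cdc25b, Cdk4, E2f1, Mcm5, Mcm7 and Rrm1), and Cdk2, Pcna and Tyms were called in neither.

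Beside this fall, rod markers were higher on day 6. Under hyperoxia 8 of 11 were called higher, and the log2 of their summed level was 13.62 to 14.03 on day 6 against 13.17 to 13.52 on day 5. In room air 2 of 11 were called higher (Nrl, the rod-determining transcription factor, and Prph2, an outer segment protein), with sums of 13.48 to 14.08 on day 6 against 13.14 to 13.71 on day 5. Retinal progenitor markers went the other way. Under hyperoxia 6 of 12 were called lower, the transcription factors Pax6 and Sox2, the Notch pathway genes Hes5, Notch1 and Dll1, and nestin (Nes), with sums of 12.17 to 12.27 on day 6 against 12.45 to 12.59 on day 5. In room air 1 of 12 was called lower (Hes1), with sums of 12.19 to 12.36 on day 6 against 12.46 to 12.60 on day 5. No rod or progenitor marker lay under the lowest array median. Their part in the fall of the cell cycle genes was not tested.

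All 23 mitosis members were lower on day 6 under hyperoxia, with changes of -0.96 to -1.67 and a median of -1.33, and 21 of 23 were lower in room air, with a median of -1.05. Nusap1 (probe set 10838843) read 7.32 and 7.34 in SD and 7.34 and 7.13 in F344 hyperoxia arrays of day 6, against 9.06 and 9.17 in SD and 8.60 and 8.99 in F344 hyperoxia arrays of day 5. In room air it read 8.01 and 7.19 in SD and 7.75 and 7.39 in F344 on day 6, against 8.94 and 8.43 in SD and 9.35 and 8.90 in F344 on day 5. Every day 6 array was below every day 5 array. The change was -1.67 ± 0.17 under hyperoxia (moderated SE, 4 arrays a day, adjusted p = 1.73e-05) and -1.32 ± 0.17 in room air (adjusted p = 0.00112). It was the largest fall under hyperoxia among all 14324 genes.

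The genes that start mitosis fell with those that carry it out. Ccnb1, cyclin B1, read 7.79 and 7.64 in SD and 7.57 and 7.43 in F344 hyperoxia arrays of day 6, against 9.21 and 9.36 in SD and 8.91 and 9.05 in F344 on day 5. Its change was -1.52 ± 0.16 under hyperoxia (adjusted p = 2.24e-05) and -1.03 ± 0.16 in room air (adjusted p = 0.00305). Cdk1, the kinase that cyclin B activates, changed by -0.97 ± 0.19 under hyperoxia (adjusted p = 0.00702) and by -0.94 ± 0.19 in room air (adjusted p = 0.016). Its low SD level on day 6 in room air may make the latter value a bound. Cyclin A2 (Ccna2) changed by -1.32 under hyperoxia and -0.76 in room air, and cyclin B2 (Ccnb2) by -1.24 and -0.96.

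The kinases Plk1 and Aurora A (Aurka), which act from mitotic entry on, had the smallest falls in room air among the mitosis members called. Plk1 read 7.16 and 7.23 in SD and 6.99 and 7.18 in F344 hyperoxia arrays of day 6, against 8.44 and 8.36 in SD and 8.07 and 8.33 in F344 on day 5. In room air it read 7.24 and 6.93 in SD and 7.68 and 7.41 in F344 on day 6, against 7.88 and 7.78 in SD and 8.09 and 7.84 in F344 on day 5. The days were therefore apart in each strain. The change was -1.16 ± 0.10 under hyperoxia (adjusted p = 6.77e-06) and -0.58 ± 0.10 in room air (adjusted p = 0.00621). Aurka changed by -0.96 under hyperoxia and -0.60 in room air, and Aurora B (Aurkb) by -1.13 and -0.88. Pbk, a mitotic kinase, changed by -1.63 ± 0.14 (adjusted p = 5.35e-06) and by -1.32 ± 0.14 (adjusted p = 0.000798), the smallest adjusted p of any gene in room air.

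Spindle, kinetochore and cytokinesis genes fell on day 6 in both exposures. Under hyperoxia the changes were -1.66 for Ect2, which activates RhoA at the cleavage furrow, -1.60 for the spindle checkpoint kinase Bub1 and -1.58 each for the chromosome motor Kif4a and topoisomerase II alpha (Top2a). They were -1.55 for Cep55, an abscission protein, -1.53 for the kinetochore protein Ndc80 and -1.46 for Kif11, the motor that separates the spindle poles. In room air the same 7 genes changed by -1.08 to -1.25, each with an adjusted p under 0.05. Cdc20, which activates the anaphase-promoting complex, and the phosphatase Cdc25b, which activates CDK1, were the 2 mitosis members not called in room air, at -0.68 ± 0.18 (adjusted p = 0.0529) and -0.41 ± 0.12 (adjusted p = 0.0887). Under hyperoxia they fell by 1.09 and 1.16.

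**Figure D3:**
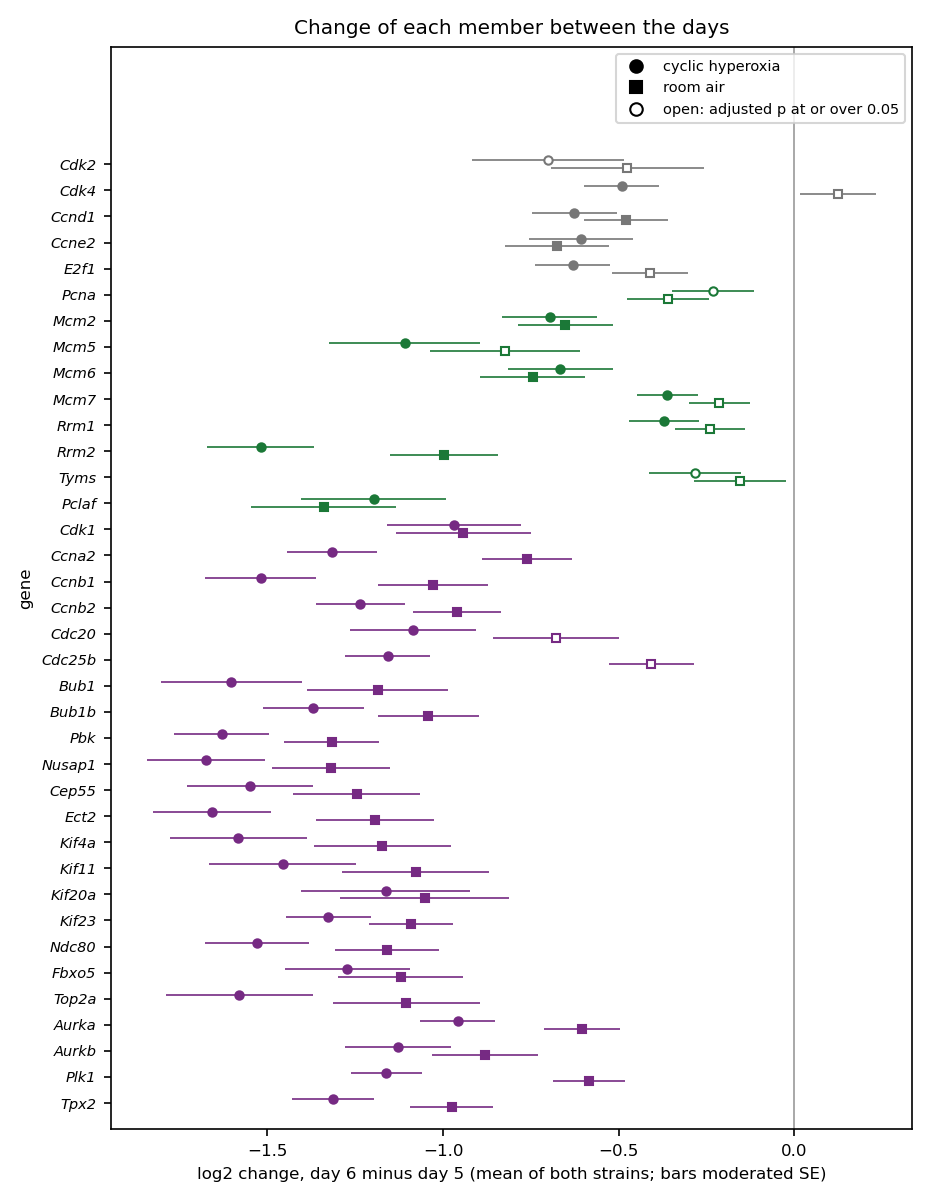
Log2 change of each measured member on day 6 minus day 5, averaged over both strains (x axis; bars are moderated SE), under cyclic hyperoxia (circles, upper of each pair) and in room air (squares), with genes down the page. Filled symbols have an adjusted p under 0.05. Purple mitosis members lie between -1.67 and -0.96 under hyperoxia, and green S phase members between -1.52 and -0.23.

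Of the 9 S phase members, 7 were lower on day 6 under hyperoxia (median -0.67) and 4 in room air (median -0.65). Ribonucleotide reductase subunit Rrm2, which supplies deoxynucleotides, read 7.42 and 7.38 in SD and 7.80 and 8.004 in F344 hyperoxia arrays of day 6, against 9.08 and 9.12 in SD and 8.92 and 9.55 in F344 on day 5. It changed by -1.52 ± 0.15 (adjusted p = 1.81e-05), and in room air by -0.997 ± 0.15 (adjusted p = 0.00305). Pclaf, a PCNA-binding factor, changed by -1.20 ± 0.21 under hyperoxia (adjusted p = 0.00263) and by -1.34 ± 0.21 in room air (adjusted p = 0.00305), the largest fall of any gene there. Both genes changed by as much as the mitosis members.

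The helicase subunits changed by less. Mcm6 read 7.66 and 7.76 in SD and 7.996 and 7.76 in F344 hyperoxia arrays of day 6, against 8.31 and 8.34 in SD and 8.43 and 8.76 in F344 on day 5. It changed by -0.67 ± 0.15 (adjusted p = 0.0158), and by -0.75 ± 0.15 in room air (adjusted p = 0.0149), where the SD arrays of the days overlapped. Mcm2 changed by -0.70 under hyperoxia and -0.65 in room air, both called. Mcm5 (-1.11) and Mcm7 (-0.36) were called under hyperoxia alone, as was the large reductase subunit Rrm1 (-0.37). Pcna changed by -0.23 ± 0.12 under hyperoxia (adjusted p = 0.311) and by -0.36 ± 0.12 in room air (adjusted p = 0.12). Thymidylate synthase, Tyms, changed by -0.28 and -0.15 (adjusted p = 0.266 and 0.65).

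At the G1/S transition, 4 of 5 members were lower on day 6 under hyperoxia (median -0.63) and 2 of 5 in room air (median -0.48). Cyclin D1, Ccnd1, read 10.07 and 10.19 in SD and 10.31 and 10.31 in F344 hyperoxia arrays of day 6, against 10.78 and 10.80 in SD and 10.70 and 11.11 in F344 on day 5. It changed by -0.63 ± 0.12 (adjusted p = 0.00577), and in room air by -0.48 ± 0.12 (adjusted p = 0.0437). Cyclin E2, Ccne2, was called in both (-0.61 and -0.68). E2f1, the transcription factor that drives replication genes, changed by -0.63 ± 0.11 under hyperoxia (adjusted p = 0.00224) and by -0.41 ± 0.11 in room air (adjusted p = 0.0503). Cdk4 changed by -0.49 ± 0.11 under hyperoxia (adjusted p = 0.0133) and by 0.12 ± 0.11 in room air (adjusted p = 0.655). Cdk2 did not pass in either (-0.70 and -0.48).

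The count of members called lower was 28 to 36 under hyperoxia and 19 to 31 in room air when any 1 of the 16 arrays was left out. In all 16 such fits, 27 of the 34 and 18 of the 27 were called. Under hyperoxia Cdk4, Ccne2, Mcm6, Mcm7, Rrm1, Cdk1 and Kif20a lost their call without at least 1 array, with adjusted p up to 0.206. In each case an SD hyperoxia array of day 6 or day 5 was among them, and the others were both arrays of F344 hyperoxia day 5, replicate 2 of F344 hyperoxia day 6 and, for Rrm1, both of F344 room air day 6. In room air Ccnd1, Ccne2, Mcm2, Mcm6, Cdk1, Kif11, Kif20a, Top2a and Aurka did, and all but Aurka lost it without SD room air day 5 replicate 1 (19 members called without it), while Aurka lost it without F344 room air day 6 replicate 2 (20 called). Apart from these, arrays of F344 room air on either day, SD room air day 6 replicate 2 and, for Ccnd1, SD hyperoxia cost 1 or more of these genes their call, with adjusted p up to 0.227.

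Both the S phase and the mitosis members averaged lower on day 6, and the mitosis members fell further. The mean of the mitosis members minus that of the S phase members, each relative to the gene's mean, was between -0.54 and -0.03 on the 8 day 6 arrays and between 0.16 and 0.36 on the 8 day 5 arrays. By group it averaged -0.30 ± 0.06 (SD, n = 2) in SD hyperoxia day 6, -0.15 ± 0.16 in SD room air day 6, -0.45 ± 0.14 in F344 hyperoxia day 6 and -0.13 ± 0.11 in F344 room air day 6. On day 5 it averaged 0.34 ± 0.03 in SD hyperoxia, 0.21 ± 0.0029 in SD room air, 0.20 ± 0.05 in F344 hyperoxia and 0.28 ± 0.08 in F344 room air. The hyperoxia groups of day 6 had the lowest means. In SD the arrays of day 6 overlapped, at -0.343 and -0.261 under hyperoxia against -0.033 and -0.263 in room air. The replicate SD of the mitosis minus S phase difference over all groups was 0.09. Its largest replicate gaps were -0.54 and -0.35 in F344 hyperoxia day 6 and -0.03 and -0.26 in SD room air day 6. Because members are not replicates, no p is given for it.

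**Figure D4:**
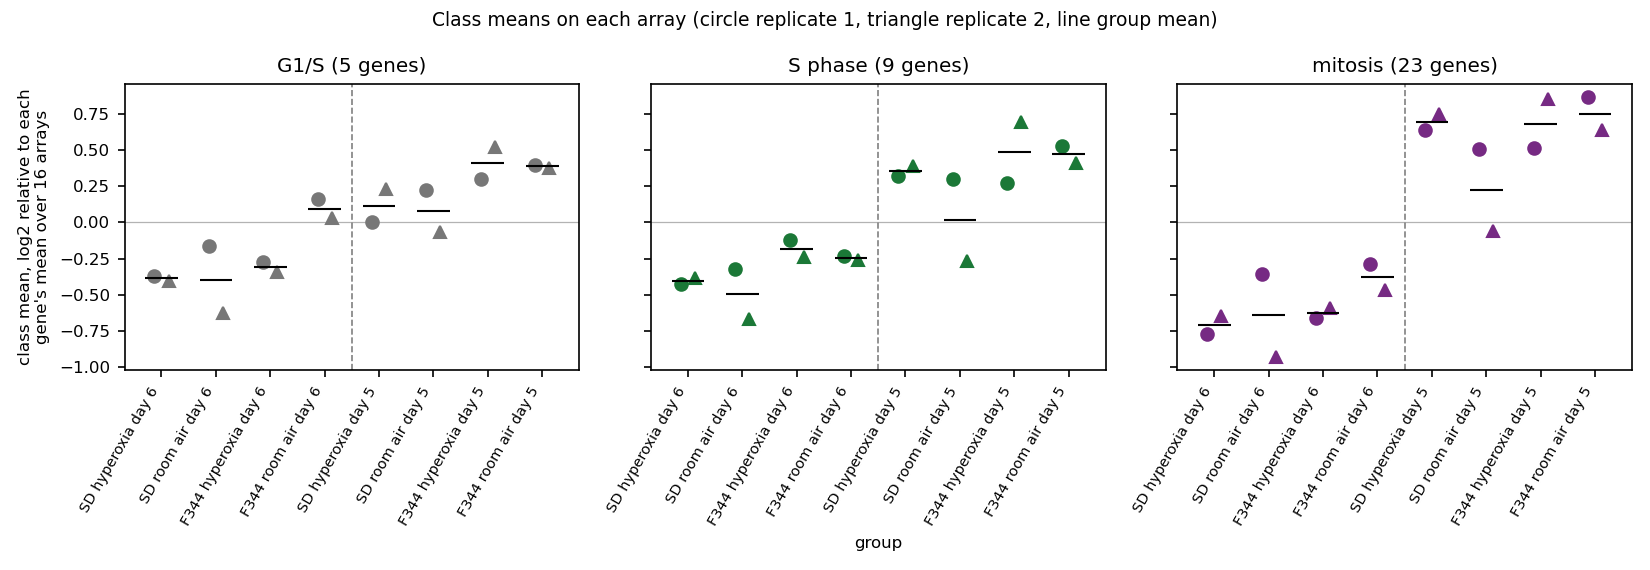
Class means on each array (y axis, log2 relative to each gene's mean over 16 arrays) for G1/S, S phase and mitosis members, by group (x axis). Circles are replicate 1, triangles replicate 2, lines group means, and the dashed line parts day 6 on the left from day 5. Mitosis members lie at -0.28 or lower on day 6 and at -0.06 or higher on day 5, and replicate 2 of both SD room air groups lies below replicate 1 in all 3 panels.

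Many cell cycle genes outside the set were lower on day 6 too. Of 29 other measured mitosis genes, 26 were called lower on day 6 under hyperoxia and 25 in room air, and 0 higher, with medians of -0.97 and -0.76. Those with the smallest p under hyperoxia included Tacc3, a spindle protein (-1.43), Foxm1, the transcription factor of G2/M genes (-0.97), Melk, a mitotic kinase (-1.44), Cenpa, the centromeric histone (-1.03), and Nek2, a centrosome kinase (-1.51). Of 24 other S phase genes, 9 were called lower under hyperoxia and 8 in room air, with medians of -0.39 and -0.36. Among them were Uhrf1, which keeps DNA methylation through replication (-1.13 and -0.86), the replication initiation gene Mcm10 (-0.84 and -0.81) and cyclin E1, Ccne1 (-0.62 and -0.47). Ccne1 was listed here, although cyclin E acts at the G1/S transition, where its relative Ccne2 was counted. The repressors E2f7 (-1.07 and -0.75) and E2f8 (-0.85 and -0.62) fell, as did Tfdp2, a partner of E2F, and Mybl2, a transcription factor that joins the MuvB complex, which made 4 of 13 other G1, E2F and RB genes in each exposure. Of 10 CDK inhibitors and antiproliferative genes none was called higher on day 6 in either exposure (at an unadjusted p under 0.05, 3 under hyperoxia and 1 in room air in either direction, against 18.3% and 15.2% of all genes), and 1 was called lower, Cdkn2c, the p18 inhibitor of CDK4 (-0.67 and -0.65).

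Few members passed the test for oxygen at a given day. On day 5, 0 of 37 were called in SD or in F344 by limma, where 0% of all genes were called higher in each strain, and 0.0628% lower in SD and 0.126% lower in F344. At an unadjusted p under 0.05 there were 16 of 37 members in SD, against 9.05% of all genes, and 1 of 37 in F344, against 8.36% of all genes. In SD, 35 of 37 changes were positive, with a median of 0.41, and in F344 25 of 37 were negative, with a median of -0.06. The F344 median was positive without replicate 1 of F344 hyperoxia (0.07) or of F344 room air (0.04), and without replicate 2 it was -0.22 and -0.13. The SD value rested on SD room air day 5 replicate 2. Leaving it out gave a median of 0.16, and leaving out the other array of the group gave 0.70. Cdk1 had the largest change in SD, 0.82 ± 0.27 (adjusted p = 0.424), with 7.05 and 7.24 under hyperoxia against 6.73 and 5.91 in room air. Over both strains on day 5, 0 members were called, where 0% of all genes were called higher and 0.209% lower, and the members' median was 0.16, which ran from 0.05 without SD room air day 5 replicate 2 to 0.28 without replicate 1 of that group. The difference of the oxygen effect between the strains (SD minus F344) was called for 0 members on day 5, as for 0% of all genes, and 11 of 37 members had an unadjusted p under 0.05, against 6.14% of all genes.

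On day 6, Pcna was the member higher under hyperoxia. It read 9.50 and 9.45 in SD hyperoxia against 8.80 and 8.78 in SD room air, and 9.83 and 9.77 in F344 hyperoxia against 9.43 and 9.34 in F344 room air. The groups did not overlap in either strain. The change over both strains was 0.55 ± 0.12 (adjusted p = 0.015), where 4.01% of all genes were called higher. In SD alone it was 0.68 ± 0.16 (adjusted p = 0.0372, with 2.23% of all genes called higher and 0.565% lower) and in F344 alone 0.41 ± 0.16 (adjusted p = 0.209, with 0.342% of all genes called higher). The call over both strains did not survive leaving out either F344 room air array of day 6 or replicate 1 of SD hyperoxia day 6 (adjusted p up to 0.0893). That in SD was lost without either array of SD hyperoxia day 5, F344 room air day 6, SD hyperoxia day 6 or SD room air day 6 (adjusted p up to 0.35).

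Cdk4 and Cdc25b were the members lower under hyperoxia on day 6. Cdk4 read 10.36 and 10.23 in F344 hyperoxia against 11.36 and 11.20 in F344 room air, and 10.82 and 10.63 in SD hyperoxia against 10.67 and 10.61 in SD room air. The F344 groups were apart and the SD groups overlapped. In F344 the change was -0.99 ± 0.15 (adjusted p = 0.0191), where 0.845% of all genes were called lower, and over both strains -0.45 ± 0.11 (adjusted p = 0.0222, 2.73% of all genes called lower). The difference of the oxygen effect between strains was 1.07 for Cdk4 (adjusted p = 0.0905). It was called for 0 members, where 0.0489% of all genes were called higher and 0.00698% lower.

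Cdc25b read 6.71 and 7.19 in F344 hyperoxia against 7.87 and 7.69 in F344 room air, and 6.90 and 7.16 in SD hyperoxia against 7.16 and 7.10 in SD room air. Replicate 1 of F344 hyperoxia was lowest, and the SD groups overlapped. The change was -0.83 ± 0.17 in F344 (adjusted p = 0.0338) and -0.46 ± 0.12 over both strains (adjusted p = 0.034). The F344 calls of Cdk4 and Cdc25b were both lost without F344 hyperoxia day 6 replicate 2, the array that stood apart, and without F344 room air day 6 replicate 1 or 2 (adjusted p up to 0.211 for Cdk4 and 0.251 for Cdc25b). That of Cdc25b was also lost without either SD hyperoxia array of day 5 or of day 6. Over both strains, Cdk4 was lost (adjusted p up to 0.0922) without F344 hyperoxia day 6 replicate 2, either array of F344 room air day 6 or SD hyperoxia day 6, or SD room air day 6 replicate 1. Cdc25b was lost there (adjusted p up to 0.181) without either array of SD hyperoxia day 5, F344 room air day 6 or SD room air day 6, or SD hyperoxia day 6 replicate 1.

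Over all members the oxygen effect on day 6 had a median of -0.03 in SD and of -0.23 in F344. The F344 value was -0.11 without replicate 1 of F344 room air day 6 and -0.32 without replicate 2. Leaving out replicate 1 of SD room air day 6 gave an SD median of 0.20, and leaving out replicate 2 gave -0.23. Cdk1 in SD read 6.07 and 6.25 under hyperoxia against 5.53 and 5.02 in room air (0.89 ± 0.27, adjusted p = 0.0859). Among other cell cycle genes on day 6, over both strains, Gmnn, geminin, which blocks relicensing of DNA (0.70 ± 0.16, adjusted p = 0.0193), Rpa2, a single-strand DNA binding protein (0.51 ± 0.10, adjusted p = 0.0125), and Gadd45a, a damage-induced growth arrest gene (0.43 ± 0.09, adjusted p = 0.0147), were higher under hyperoxia. Of all genes, 4.01% were called higher and 2.73% lower in this comparison. The 3 genes are named because they were called, from lists of 24 S phase, 29 mitosis, 13 G1, E2F and RB, and 10 CDK inhibitor and antiproliferative genes. They therefore describe single genes and no response of these lists. Of 9 endothelial markers, 3 were called lower in SD on day 6 and 0 in F344 (3 at an unadjusted p under 0.05, against 17.6% of all genes). Their summed log2 level was 8.19 to 8.23 in SD hyperoxia against 8.58 to 8.61 in SD room air, and 8.22 to 8.55 in F344 hyperoxia against 8.51 to 8.53 in F344 room air, where the groups overlapped, with 6 or 7 of 9 under the lowest array median. Their part in these results was not tested.

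The oxygen effect on day 6 minus that on day 5 was called for 0 members, where 0.182% of all genes were called higher and 0% lower. It was negative for 33 of 37 members and for all 23 mitosis members, with a median of -0.30, and 7 of 37 members had an unadjusted p under 0.05, against 8.46% of all genes. With replicate 2 of SD room air day 5 left out the median was -0.14, with replicate 1 of SD room air day 6 left out it was -0.15, and with the other array of either group left out it was -0.41. Cdc25b had the smallest adjusted p (-0.75 ± 0.17, adjusted p = 0.14). Without F344 room air day 5 replicate 1, or without F344 hyperoxia day 6 replicate 2, 1 member was called.

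**Figure D5:**
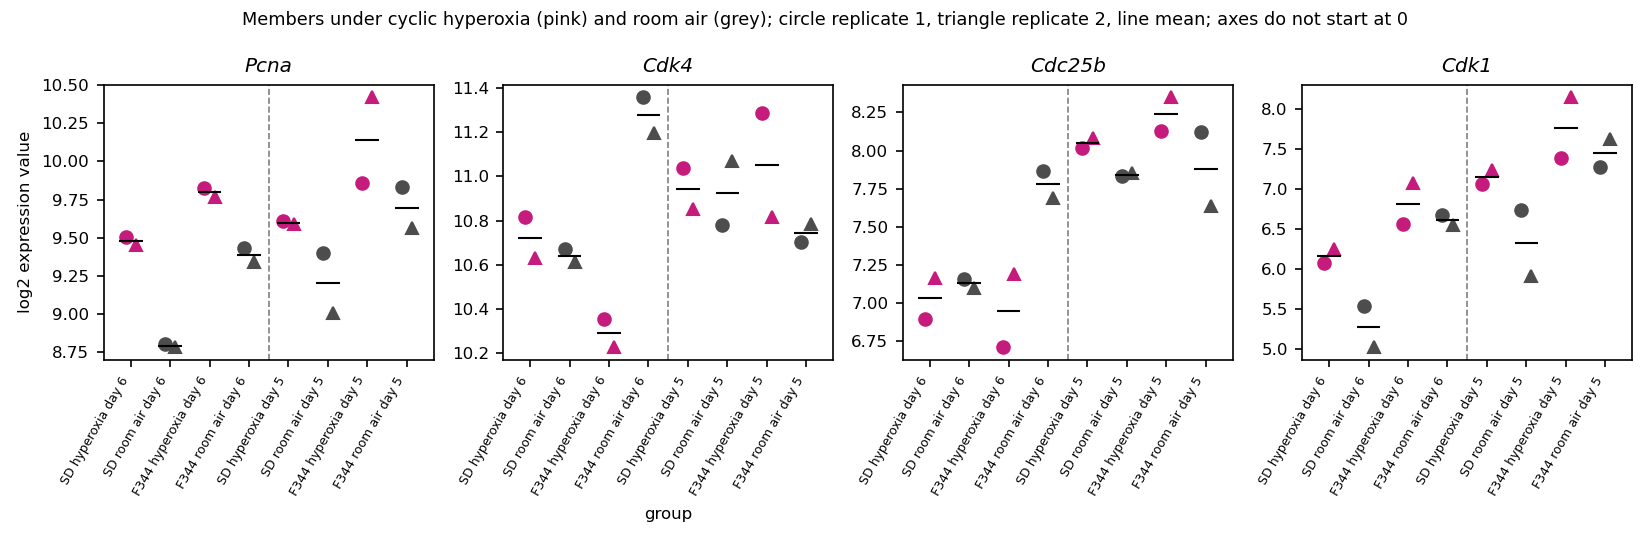
Log2 expression values of Pcna, Cdk4, Cdc25b and Cdk1 by group (x axis), with hyperoxia in pink, room air in grey, circles for replicate 1, triangles for replicate 2 and lines for group means; the y axes do not start at 0 and differ between panels. Hyperoxia arrays of Pcna lie above room air arrays in both strains on day 6, and hyperoxia arrays of Cdk4 lie below them in F344 at 10.36 and 10.23 against 11.36 and 11.20.

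Some members differed between the strains in room air, and the strain difference was not tested under hyperoxia. Over both days, 10 of 37 members were lower in SD than in F344 and 0 higher, where 5.33% of all genes were called lower and 4.02% higher. The median difference was -0.38, against 0.0083 over all genes, and 12 members did not overlap between the strains within either day, against 7.73% of all genes. In room air the mitosis members averaged -0.64 in SD and -0.38 in F344 on day 6, and 0.22 and 0.75 on day 5. On day 6 the arrays overlapped, with -0.36 and -0.93 in SD against -0.28 and -0.47 in F344. Under hyperoxia the mitosis members averaged -0.71 in SD and -0.63 in F344 on day 6, and 0.70 and 0.68 on day 5. The S phase means under hyperoxia were -0.41 in SD and -0.18 in F344 on day 6, and 0.36 and 0.48 on day 5. Cdk1 read 5.53 and 5.02 in SD against 6.67 and 6.55 in F344 on day 6, and 6.73 and 5.91 in SD against 7.28 and 7.62 in F344 on day 5, so the strains were apart on both days. Its difference was -1.23 ± 0.19 (adjusted p = 0.00107).

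Cdc20 (-0.94), Bub1b, a spindle checkpoint protein (-0.70), Tpx2, a spindle assembly factor (-0.55), Ccnb2 (-0.47) and Kif23, a cytokinesis motor (-0.43), were the other mitosis members lower in SD. E2f1 was lower as well (-0.68 ± 0.11, adjusted p = 0.00115), at 6.06 and 5.82 in SD against 7.02 and 6.74 in F344 on day 6, and 6.72 and 6.5002 in SD against 7.06 and 7.0006 in F344 on day 5. Among S phase members Rrm2 (-0.69), Pcna (-0.54) and Mcm7 (-0.44) were lower. The class shares were 1 of 5 G1/S, 3 of 9 S phase and 6 of 23 mitosis members.

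The count for the strain difference fell to 6 with replicate 1 of F344 room air day 6 left out, and was 18 and 17 with replicate 1 of SD room air left out on day 6 and on day 5. With replicate 2 of SD room air left out, the lower replicate for most members, it was 8 on day 6 and 7 on day 5. No fit left out replicate 2 of both days together. E2f1, Pcna, Mcm7, Cdk1, Cdc20 and Bub1b were called in all 16 fits with 1 array left out. Rrm2, Ccnb2, Kif23 and Tpx2 lost their call without that F344 array, and all but Tpx2 also without SD room air day 5 replicate 2 (adjusted p up to 0.163). Ccnb2 and Kif23 lost it too without replicate 1 of F344 room air day 5 or replicate 2 of SD room air day 6, Ccnb2 without replicate 2 of F344 room air day 6, and Kif23 without either SD hyperoxia array of day 5. Rod markers were higher in SD beside this, 6 of 11 called, with summed log2 levels of 13.91 to 14.08 in SD against 13.48 to 13.61 in F344 on day 6 and 13.58 to 13.71 in SD against 13.14 to 13.21 in F344 on day 5. Progenitor markers were lower for 2 of 12 (Rax and Notch1), with sums of 12.19 to 12.36 in SD against 12.35 to 12.36 in F344 on day 6 and 12.46 to 12.48 in SD against 12.52 to 12.60 in F344 on day 5. Their part in the strain difference was not tested. Outside the set, 9 of 29 other mitosis genes and 6 of 24 other S phase genes were lower in SD, and Prim1, a primase subunit, was higher by 1.09 ± 0.12 (adjusted p = 6.99e-05).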

How the data were processed

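RNA of 16 retinal pools was hybridised to Affymetrix gene arrays, 1 colour and 1 pool each. The authors deposited log2 values for 27342 probe sets, made with Partek 6.4 and RMA per the submitters' processing notes. RMA subtracts background and quantile-normalizes the arrays, so a change common to most transcripts would not show. No step before the deposited log2 values was repeated, and the genome build of the probe design is not given in the sources used here. Array medians lay between 5.45 and 5.52, and precision is limited by how many arrays there were.

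Gene names of probe sets came from the platform annotation, with symbols updated through the RefSeq gene table of GRCr8. Of the probe sets 15097 had 1 gene symbol, 323 several and 11922 none listed. The brightest set was kept for 499 genes with several, which left 14324 genes. Groups came from the sample labels, and all 16 arrays were used.

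One mean per group was fitted with limma 3.58.1 in R 4.3.3, with 8 residual and 7.41 prior degrees of freedom. The 12 contrasts were the oxygen effect (hyperoxia minus room air) by strain and day and over both strains by day, its difference between strains by day and between days, the strain difference in room air, and the day difference in room air and under hyperoxia. P values were two-sided and adjusted (Benjamini-Hochberg) within each contrast over every gene tested, with calls at an adjusted p under 0.05. The fit was tested on simulated data with known changes. Errors after ± are moderated SEs for changes and SDs for groups. Named are the members, other listed cell cycle genes by call and smallest p, markers by list, and the 10 genes most and least like the mitosis members over the arrays. The members and all lists were chosen with earlier results of these data known, so counts over them describe and do not test.

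Replicate numbers were compared between groups as possible pairs. Deviations of arrays with the same number correlated over 0.1 in 8 of 28 pairs of groups (r from -0.29 to 0.52), and they were not treated as pairs. Between the days of the same strain and exposure r was 0.52 in SD room air and 0.25 in F344 room air. It was 0.22 in SD hyperoxia and -0.03 in F344 hyperoxia. Groups of unlike strain and exposure correlated as well. F344 hyperoxia day 6 had r of 0.39 with SD room air day 6 and of 0.26 with SD room air day 5. For F344 hyperoxia day 5 these were -0.26 and -0.21. A replicate effect that differs between groups was not modelled. The replicate block below is a shift common to all groups and cannot remove such an effect. Alternatives were leaving out each array, a replicate block, fitting only the arrays concerned, array medians subtracted, quantile normalization again, a filter on dim genes, mean of probe sets, every probe set tested, a trended robust variance and array weights.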

Additional observations from a re-analysis of the deposited data

How the results depend on the processing

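The falls of the members between the days kept their direction under all 9 other settings tried, with 33 to 34 called under hyperoxia and 21 to 31 in room air, and 32 of 34 and 21 of 27 members were called under every one. With the replicate number as a block, 33 were called under hyperoxia, 26 in room air and 10 for the strain difference, and no other count of calls moved. Calls for the oxygen effect on day 6 were the least stable. In F344 the count of members called was 0 with only the arrays of that day, 0 with array weights, 1 with quantile normalization again and 1 with every probe set tested, and in SD it was 0 with array medians subtracted and 0 with every probe set tested. With 1 array left out, counts ran from 0 to 2 in F344, 0 to 1 in SD and 0 to 4 over both strains on day 6, from 6 to 18 for the strain difference in room air, and from 0 to 1 both for the day difference of the oxygen effect and for its strain difference on day 6. The members' median then ran from 0.16 to 0.70 for SD day 5, from -0.23 to 0.20 for SD day 6, and for the strain difference of the oxygen effect from 0.13 to 0.81 on day 5 and from -0.15 to 0.45 on day 6. The mitosis minus S phase difference ran from -0.57 to -0.39 in F344 hyperoxia day 6 and from -0.26 to -0.050 in SD room air day 6. With Ccna2, Fbxo5, Top2a, Rrm2 and Pclaf, genes used in both phases, left out, it was -0.40 in SD hyperoxia day 6, -0.29 in SD room air day 6, 0.46 in SD hyperoxia day 5, 0.30 in F344 hyperoxia day 5 and 0.39 in F344 room air day 5. The CHR core was in 36.8% of mitosis promoters in the shorter window. The day difference of the oxygen effect has no value from the arrays of 1 day. With 2 pools a group, small changes between the days may go uncalled. Tyms was called in neither exposure, and Mcm7 and Rrm1 were not called in room air.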

Other observations

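Across the 16 arrays, the genes outside the set that followed the mean of the mitosis members most closely were Kif2c, a microtubule-depolymerizing kinesin (Pearson's r = 0.986), Nek2, the kinetochore protein Nuf2, Arhgap11a, the kinesin Kif20b, Tacc3, the centriole kinase Plk4, the lamin B receptor Lbr, and the kinetochore proteins Ska3 and Dsn1 (r = 0.978). All had lower values on day 6, with changes of -1.41 under hyperoxia and -1.11 in room air for Kif2c and of -0.59 and -0.38 for Lbr. At the other end stood genes that were higher on day 6, with r between -0.90 and -0.88. They included Trpm1, the cation channel of ON bipolar cells (1.51 under hyperoxia and 1.33 in room air), Scgn, secretagogin, a calcium-binding protein (1.49 and 1.42), the calmodulin kinase Camk4 (0.52 and 0.52), Pcp4 (0.67 and 0.49) and Gsg1 (0.62 and 0.49). These correlations describe 16 arrays that share the day as their main difference, and genes are not independent replicates. Among the members, Ect2 followed the mean of the other mitosis members most closely (r = 0.989), and Cdk4 (r = 0.31), Pcna (r = 0.51) and Tyms (r = 0.56) least.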
